A study of Mus musculus with 8 samples.

Results

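Mouse chromosome 11 carried 2103 of the 28933 regions listed as enriched for Foxk1 in mouse embryonic fibroblasts (MEFs), or 7.27% of the list. These members were selected by their chromosome from a list of called peaks, so the enrichment over input that made each one a peak was also what chose it, and its strength is given as a description. Foxk1 was immunoprecipitated from sonicated nuclei of MEFs grown in DMEM with no treatment. There were 3 libraries with the Foxk1 antibody, 3 with IgG and 2 of input chromatin. The labels name neither strain nor genotype. The deposited list compares Foxk1 with input on the mm9 assembly and gives 1 signal value per peak, a score of unstated scale. It holds no value for a single library or for IgG, so none of the values below has a replicate error, and differences between stretches or chromosomes were not tested. Read depth is unknown.

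Foxk1 is a forkhead transcription factor, a class of proteins that bind DNA through a winged-helix fold. It also has a forkhead-associated domain, which recognises phosphorylated partners. With its paralog Foxk2 it is known to restrain autophagy genes in fed cells and to promote aerobic glycolysis. Mouse chromosome 11 is gene-rich and shares large blocks of gene order with human chromosome 17. It holds many genes of fibroblast biology, among them those of p53, Brca1, the epidermal growth factor receptor, a collagen I chain, the Hoxb cluster, the clock repressor Per1 and the microRNA miR-21.

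The names of loci below rest on general knowledge of the places of these genes on mm9, taken to the nearest 100 kb and read from no file, so that an edge may be off by a window. No mm9 annotation was joined to the peaks, and no distance from a peak to a gene was computed. A stretch named for a gene also holds its neighbours. The densest stretch of the chromosome was that of Vmp1 and Mir21a, and the Hoxb stretch holds Mir10a and Mir196a-1. Their mature products are shown because they are the short regulatory RNAs of these peak-rich places. The sequences are from RefSeq (GRCm38.p6), read 5′ to 3′, with the seed, bases 2 to 8, in capitals. All 3 seeds differ. RefSeq lists the same mature miR-196a-5p for Mir196a-2, on another chromosome.
miR-21a-5p, GRCm38.p6 chr11:86584120-86584141, minus strand: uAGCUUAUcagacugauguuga
miR-10a-5p, GRCm38.p6 chr11:96317186-96317208, plus strand: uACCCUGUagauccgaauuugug
miR-196a-5p, GRCm38.p6 chr11:96265187-96265208, plus strand: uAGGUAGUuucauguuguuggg

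Upstream sequence is shown for 3 genes whose stretches held some of the strongest peaks of the chromosome (Per1, Sqstm1 and Brca1). Each run is the 250 bases before the annotated start site on the strand of the gene, from RefSeq. The GRCm38.p6 coordinates serve only as the address of the sequence, are not comparable with the mm9 coordinates of peaks, and no overlap between these windows and peaks was computed, so a strong peak of a stretch need not lie in the window printed for its gene. Capitals mark matches, on either strand, to 6 motifs: a forkhead core (GTAAACA), an AP-1 site (TGANTCA), an E-box (CACGTG), a cAMP response element (TGACGTCA), a TEAD site (GGAATG) and a CCAAT box (CCAAT, or ATTGG on the other strand). None of these overlapped another in the 3 windows.
Per1, first of its start sites, GRCm38.p6 chr11:69098699-69098948, plus strand: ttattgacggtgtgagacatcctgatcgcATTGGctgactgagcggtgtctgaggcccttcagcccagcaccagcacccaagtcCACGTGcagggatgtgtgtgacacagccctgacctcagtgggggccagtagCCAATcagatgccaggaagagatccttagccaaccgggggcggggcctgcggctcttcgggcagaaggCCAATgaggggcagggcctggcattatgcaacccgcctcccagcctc
Sqstm1, GRCm38.p6 chr11:50210821-50211070, minus strand: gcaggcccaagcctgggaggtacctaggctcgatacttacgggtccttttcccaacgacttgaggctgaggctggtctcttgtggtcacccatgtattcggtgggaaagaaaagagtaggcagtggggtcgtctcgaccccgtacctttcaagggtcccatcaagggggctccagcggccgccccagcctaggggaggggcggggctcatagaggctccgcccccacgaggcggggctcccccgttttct
Brca1, GRCm38.p6 chr11:101551956-101552205, minus strand: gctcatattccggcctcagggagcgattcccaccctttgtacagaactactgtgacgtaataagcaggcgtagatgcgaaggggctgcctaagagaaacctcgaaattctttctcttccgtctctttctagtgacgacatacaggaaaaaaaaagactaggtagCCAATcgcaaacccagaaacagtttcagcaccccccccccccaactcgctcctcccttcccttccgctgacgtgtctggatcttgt

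The printed Per1 window held 1 E-box, starting 166 bases before the start site, and 3 CCAAT boxes. The E-box is the element through which Clock and Bmal1 are known to drive Per1. The window of the other Per1 start site, not printed, held 1 CCAAT box and no E-box. The Brca1 window held 1 CCAAT box. No listed motif was found in the Sqstm1 window. Over 32841 such windows of all genes, 6.02% held the E-box, 33.9% a CCAAT box and 3.17% the forkhead core. Over the 2289 windows of chromosome 11 the shares were 7.21%, 33.7% and 2.62%. A match is a run of letters and not a measured binding site, and a window without one says nothing about the factor.

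Peaks were on average thinner in the first part of the chromosome than in the rest. The list begins with a peak at chr11:3112514-3112973 and ends with one at chr11:121641201-121641660. The assembly of mouse chromosomes opens with a centromeric gap to which no reads can be placed, and the first 3 windows of 1 Mb were empty. Up to 50 Mb, a limit chosen after the counts were seen, there were 511 peaks, or 10.9 per Mb over 47 Mb without those first windows. Beyond it there were 1592, or 22.2 per Mb over 71.6 Mb. The part beyond 50 Mb thus held 75.7% of the peaks of the chromosome.

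Strength did not divide the chromosome in the same way. The median signal value was 18.96 up to 50 Mb and 18.5 beyond. Signal values of at least 50 were reached by 44 of the 511 peaks (8.61%) and by 165 of the 1592 (10.4%). The median distance from one summit to the next was 22.4 kb in the first part and 18.04 kb in the second. The first part consisted of peak-bearing blocks set between long empty stretches, and it held 6 of the 8 intervals of over 1 Mb.

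In steps of 10 Mb the count fell from 139 peaks in the first stretch to 78 between 30000001 and 40000000. The first stretch includes the 3 empty 1 Mb windows at the start of the chromosome, so its count understates the density of the remainder. The count was 95 between 40000001 and 50000000 and 172 between 50000001 and 60000000. The 5 full stretches from 60000001 to 110000000 held between 199 and 260 peaks each, the highest count lying between 100000001 and 110000000. That stretch also had the highest median signal value of the 13, 20.4. Of its 260 peaks 29 reached 50, beside 9.94% over the chromosome and 23 of 172 between 50000001 and 60000000. The lowest median, 16.7, belonged to the stretch with the fewest peaks among the full ones, from 30000001 to 40000000, where 64 of 100 windows of 100 kb were empty. Yet this sparse stretch held the fifth-strongest peak of the chromosome.

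**Figure D1:**
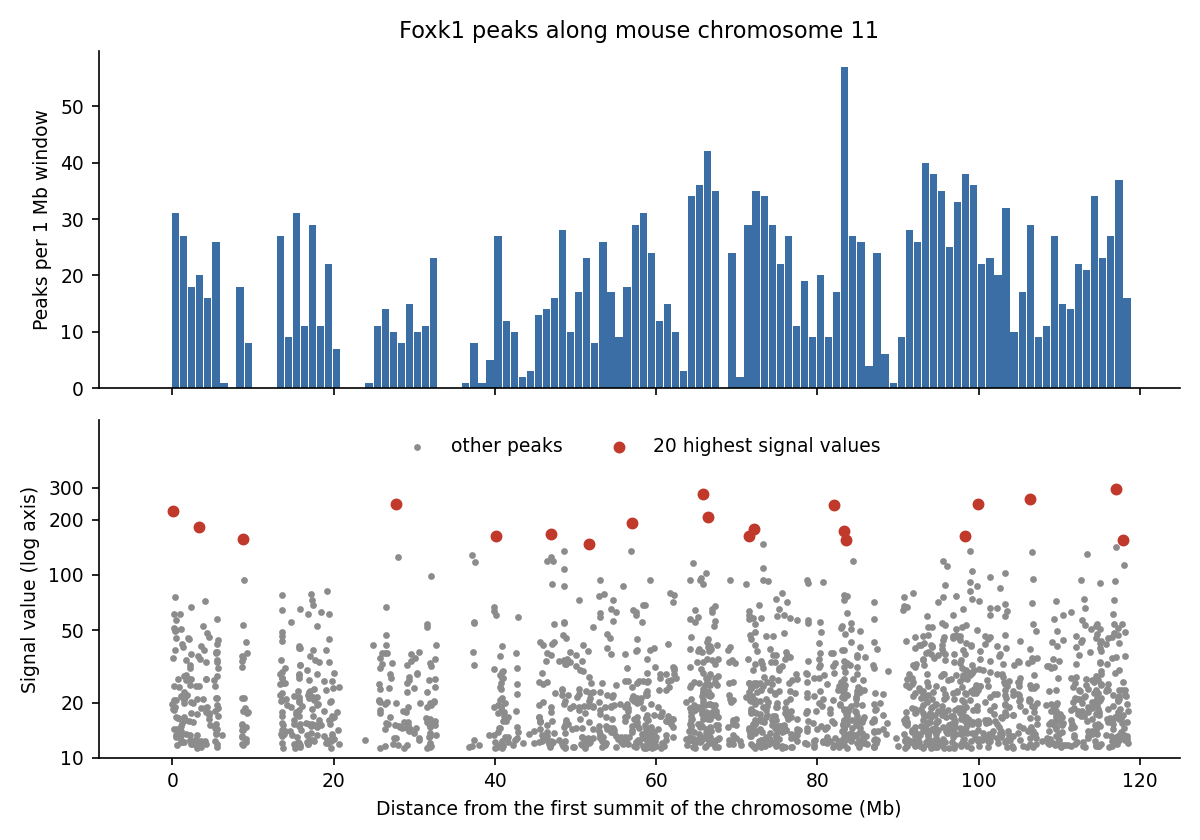
Upper panel: number of Foxk1 peaks in each window of 1 Mb, placed by the distance of the window centre from the first summit of chromosome 11 (Mb). Lower panel: signal value of each of the 2103 peaks (log axis) at the same distances, with the 20 highest in red. The first part shows blocks of peaks between empty stretches, 1 window reaches 57 peaks, and the 20 strongest peaks are scattered along the chromosome.

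Of the 122 windows of 1 Mb, 14 had no peak, 23 had 1 to 9, 32 had 10 to 19, 34 had 20 to 29 and 19 had 30 or more. Those 19 windows held 689 peaks, or 32.8% of the total. The fullest ran from 86000001 to 87000000, with 57 peaks, of which 8 had a signal value of at least 50. Next came 69000001 to 70000000 with 42 peaks, the window of Trp53. The window from 96000001 to 97000000, which holds the Hoxb cluster, had 40. Over the whole chromosome 9.94% of peaks had a signal value of at least 50. The extremes among the 10 fullest windows were 8 of 36 peaks between 102000001 and 103000000 and 1 of 38 between 97000001 and 98000000. The median signal values there were 23.6 and 15.6. Counts this small say little about a difference in strength, which was not tested.

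The other windows among the 10 fullest started at 101000001 with 38 peaks, 120000001 with 37, 68000001 with 36, and 70000001 and 75000001 with 35 each. The window starting at 98000001 tied with these last ones at 35 peaks and fell outside the 10 by its coordinate alone. Full windows lay next to each other in several places. With a limit of 25 peaks per window, chosen after the counts were seen, the longest run was of 9 windows, from 94000001 to 103000000, with 25 to 40 peaks each. Runs of 4 windows went from 67000001 to 71000000 (34 to 42 peaks each) and from 74000001 to 78000000 (29 to 35). The window from 71000001 to 72000000, next to the former, was empty. A run of 3 windows from 86000001 to 89000000 held the fullest one.

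At the scale of 100 kb, 516 of 1217 windows (42.4%) were empty, 213 held a single peak and 132 (10.8%) held 5 or more. The latter contained 885 peaks, or 42.1% of those on the chromosome. Over all 26360 windows of chromosomes 1 to 19 and X, 56.8% were empty and 5.87% held 5 or more, and these contained 34.8% of peaks. Chromosome 19 had the lower share of empty windows, 36.1%, and chromosomes 10 and 15 had 42.2% and 42.5%. By number of peaks chromosome 11 came first of these 20 chromosomes, and by number per Mb it came second, after chromosome 19.

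**Figure D2:**
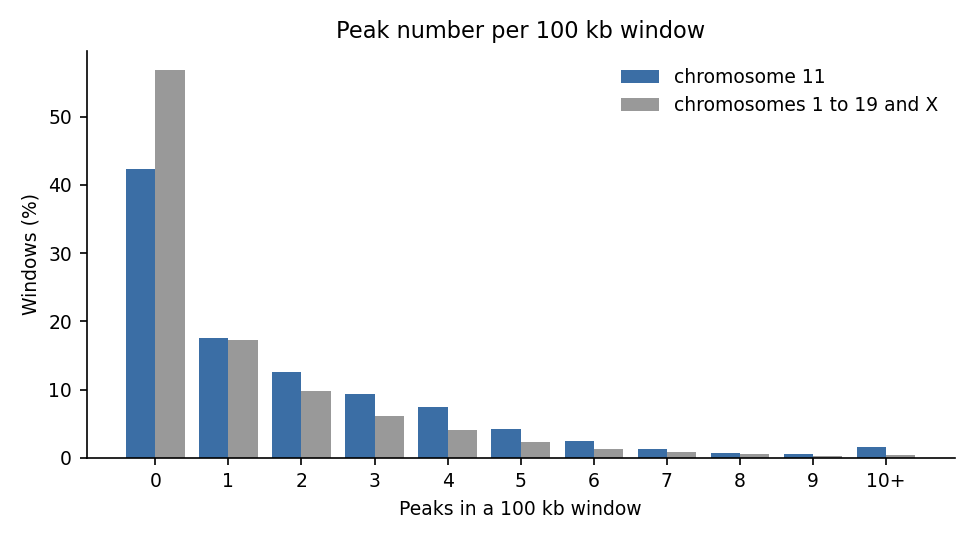
Share of 100 kb windows (%) by the number of peaks they hold, for chromosome 11 (blue, 1217 windows) and for chromosomes 1 to 19 and X together (grey, 26360 windows). Empty windows made up 42.4% on chromosome 11 and 56.8% over all, and each class with a peak was at least as frequent on chromosome 11.

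Several of the fullest 100 kb windows lay in stretches named for genes described below. The first ran from 86400001 to 86500000 with 18 peaks, in the Vmp1 and Mir21a stretch, and the second from 18800001 to 18900000 with 13, in the Meis1 stretch. A window from 74800001 to 74900000 followed with 12 peaks, none of which reached 50, beside 9.94% of all peaks on the chromosome. Windows starting at 68800001, next to the Per1 stretch, at 81800001 and 117800001 had 11 each. A further 13 windows had 10 peaks, of which those starting at 8500001, 11700001, 16700001 and 61900001 completed the 10 fullest by coordinate alone. Of the 13, 5 held at least 1 peak of at least 50 and 8, these 4 among them, held none. With 9.94% of peaks reaching 50, so few peaks per window say little about strength. The highest among the 13 was 119.7, in the window starting at 98600001.

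Median signal values were slightly higher in fuller windows, all of them within the quartiles of the chromosome, 13.8 and 29.3. The median signal value was 16.2 for the 213 peaks alone in their 100 kb window, 18.1 where the window held 2 to 4, 19.8 where it held 5 to 9, and 20.4 in the 19 windows with 10 or more. The share of peaks of at least 50 was 5.63%, 9.25%, 12.96% and 7.77% in the same order, beside 9.94% of all peaks on the chromosome. These differences were not tested. The last class, with 206 peaks, thus had the highest median but not the highest share of strong peaks.

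Signal values on chromosome 11 ranged from 11.32 to 296, with a median of 18.7 and quartiles of 13.8 and 29.3. At least 50 was reached by 209 peaks, or 9.94%, beside 7.97% of the whole list. At least 100 was reached by 43 peaks, or 2.04%, beside 1.47%, and at least 200 by 8 peaks, or 0.38%, beside 0.2%. The lowest q-value of the list, 0.00014, was given to 308 peaks, or 14.6%, beside 12.3%. Chromosome 19 had 10.1% of its peaks at 50 or more, and chromosomes 10 and 15 had 8.10% and 8.24%. The weakest members, with signal values of 11.32 at summits 78680252, 18269492 and 62598371, stood at the end of the deposited list, where the q-value was 0.00995.

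The strongest peak lay at chr11:120092739-120093198, with a signal value of 296, the fourth of the whole list. The second was chr11:68908138-68908597, in the Per1 stretch, with 276. The third was chr11:109473073-109473532 with 260. Next came chr11:102994135-102994594 with 244, chr11:30854169-30854628 with 243.5 and chr11:85165941-85166400 with 240.2. The last of those above 200 were chr11:3232227-3232686 with 222.5, only the fourth peak from the start of the list on this chromosome, and chr11:69572031-69572490 with 207.

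All 8 peaks of at least 200 had another summit within 2000 bp, as had 11 of the 20 strongest, 15 of the 43 of at least 100 (34.9%), and 610 of all 2103 (29.0%). The companions of the 8 were mostly weak. The peak summit at 120092969 had a neighbour of 142 at a distance of 1164 bp, whereas that at 109473303 had one of 12.9 at 459 bp and that at 85166171 one of 15.4 at 344 bp. The peaks are 460 bp wide, so these last pairs overlap and do not count as separate stretches of DNA. Whether such companions are sites of their own was not tested.

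The other 12 of the 20 strongest peaks had signal values from 148 to 194. They started at 60166567, 6344497, 75267993, 86442847, 50026434, 101413817, 43247042, 74643620, 11839507, 120946559, 86620923 and 54769462, in falling order of signal value. The one starting at 86442847, of 174, lay in the Vmp1 stretch, that at 50026434, of 168, in the Sqstm1 stretch, and that at 101413817, of 163, in the Brca1 stretch. The peak starting at 74643620, of 163, stood in a tight group, 5 summits within 2.58 kb with a median of 60.2. In contrast, the peak starting at 43247042, of 163, had no other summit within 50 kb. Lone peaks were about as frequent among strong peaks as among all. Of the 43 peaks of at least 100, 4 (9.30%) had no other summit within 50 kb, beside 201 of all 2103 (9.56%). The other strong lone peaks started at 60033112 with 135, 40603753 with 117.6 and 99173048 with 111.

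The median distance between adjacent summits on chromosome 11 was 19.02 kb. The medians were 23.2 kb on chromosome 10, 19.3 kb on chromosome 15 and 15.1 kb on chromosome 19, and 24.8 kb over the 20 chromosomes. A summit within 2000 bp was found for 29.0% of peaks, and for 25.8% over those chromosomes. On chromosomes 10, 15 and 19 the share was 27.8%, 27.7% and 36.5%. Peaks with none within 100 kb on either side made up 2.71%, or 57 peaks, against 6.33% over the 20 chromosomes. They made up 5.31% on chromosome 10, 4.58% on chromosome 15 and 3.28% on chromosome 19. The chromosome had 55 pairs of overlapping peaks, the closest with summits at 6428812 and 6429018, 206 bp apart, with signal values of 24.6 and 11.9. In the next closest pairs the summits were 216, 248, 276 and 277 bp apart. The signal values were 40.4 and 46.1 in the 276 bp pair and 15.8 and 16.1 in the 277 bp pair, whereas in the 216 bp pair they were 36.3 and 11.6.

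**Figure D3:**
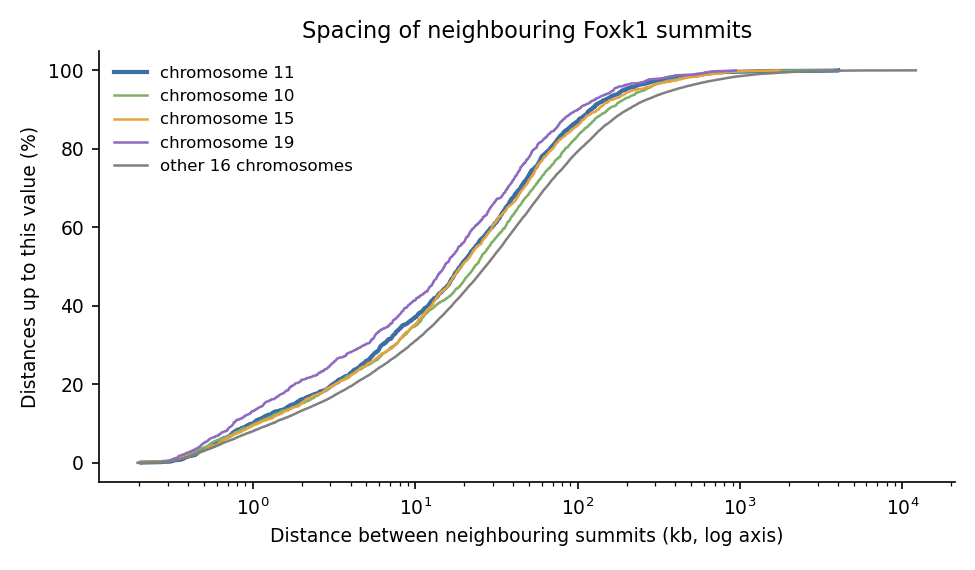
Cumulative share of distances between neighbouring summits (%) against distance (kb, log axis) for chromosome 11 (thick blue line), chromosomes 10, 15 and 19, and the other 16 chromosomes together. The chromosome 11 line lies close to that of chromosome 15, with medians of 19.02 and 19.3 kb, and to the right of that of chromosome 19.

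When summits less than 5000 bp from the next were joined, the 2103 peaks formed 1558 groups, of which 1178 were single peaks, 269 were pairs and 111 had 3 or more members. Those 111 groups held 387 peaks, or 18.4%, and 10 groups had at least 5. The longest chain, of 8 summits from 86383799 to 86400992, spanned 17.2 kb in the Vmp1 and Mir21a stretch. A chain of 6, from 86412186 to 86421570, followed in the same stretch. Other chains of 6 began at 43969745, 90085439 and 106342065, with highest signal values of 40.8, 71.4 and 102.6.

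The 4 longest stretches without a peak ran between summits at 35811611 and 39837342 (4.03 Mb), 12440618 and 16426639 (3.99 Mb), 23814052 and 27006118 (3.19 Mb), and 9296807 and 11720679 (2.42 Mb). All of them lay in the first 40 Mb. The remaining intervals over 1 Mb measured between 1.03 and 1.27 Mb. Together the 8 intervals took up 18.3 Mb. The peak at 27006118, of 12.5, was the only one between 2 of these intervals, and the peak that closed the longest interval had a signal value of 11.4, near the end of the list. Beyond 50 Mb, intervals over 1 Mb opened at 65598035 and 70853651. Next in length were 0.92 Mb after the summit at 91879853 and 0.71 Mb after that at 33782871. A stretch without a listed peak had none past the threshold of the list, and weaker binding there could not be seen.

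Counts in the stretches of 12 named loci lay between 2 and 14 peaks per 100 kb, beside a mean of 1.73 over this chromosome. The loci were chosen with results of these data in view and are what was left of a longer list, shortened after the counts had been seen. The loci left out had in effect been placed by way of GRCm38, and the places of Per1, Sqstm1, Trp53 and Col1a1 had been compared with GRCm38 too, so the places kept are not surer as a group than those left out. Because the loci were kept with their counts in view, counts above that mean are not a finding about the genes. The empty stretches also lower the mean. Since an edge may be off by a window, each stretch was also counted with the adjoining 100 kb on both sides, a choice made after seeing the data. The range was then 1.75 to 8.75 peaks per 100 kb, and for 3 of the 12 the highest peak then lay outside the named stretch. The stretch of Vmp1 and Mir21a came first in both counts. Vmp1 is a membrane protein needed for the formation of autophagosomes, and Mir21a, the gene of a microRNA abundant in fibroblasts, overlaps the end of Vmp1. Between 86300001 and 86500000 there were 28 peaks, 14 per 100 kb, with a median signal value of 18.4. The highest was 174, at summit 86443077, and peaks of 77.8 at 86400992 and 73.2 at 86437952 followed, while the other 25 lay between 11.7 and 38.9. These 3 of 28 peaks at 50 or more stand beside 9.94% of all peaks on the chromosome, where the median was 18.7. The mix of strengths was thus not particular to the Vmp1 and Mir21a stretch. The widened stretch had 35 peaks, 8.75 per 100 kb, and the same 3 of at least 50.

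Among genes of growth factor signalling, the Egfr stretch, from 16600001 to 16900000, held 24 peaks. Egfr is the receptor of epidermal growth factor. Its highest peaks were 77.9 at summit 16635721 and 64.0 at 16696568. The stretch of Igfbp1 and Igfbp3, whose products bind insulin-like growth factors, had 4 peaks in 200 kb, of 39.1, 18.6, 72.2 and 12.3.

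Transcription factor loci included that of Meis1, a partner of Hox proteins, with 21 peaks between 18700001 and 19000000 and a highest value of 64.8. The Hoxb stretch, from 96000001 to 96300000, held 18 peaks, none of which reached 50, the highest being 46.5 at 96153674. The Sox9 stretch, named for a factor of cartilage formation, had 7 peaks in 100 kb up to 71.6. Of the 21 peaks of the Meis1 stretch and the 18 of the Hoxb stretch, 1 reached 50, beside 9.94% of all peaks on the chromosome. Numbers this small say little about strength.

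The stretch of Per1, a repressor of the circadian clock, had 5 peaks. The first, at summit 68908368, had a signal value of 276, and those at 68909275, 68910003, 68910585 and 68911179 had 17.3, 17.6, 19.9 and 22.9. Up to 69000000 no further peak was listed. The summit of 276 lay near the left edge of the stretch, and the adjoining window, from 68800001 to 68900000, had 11 peaks up to 89.1, at summit 68873116. In the RefSeq gene order (GRCm38.p6) Per1 stands between Vamp2 and Hes7. The stretch of Trp53, the gene of p53, had 8 peaks between 69300001 and 69500000, the highest 43.1. With the adjoining windows it had 20 peaks, 2 of them of at least 100, the highest being that of 207 at summit 69572261.

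**Figure D4:**
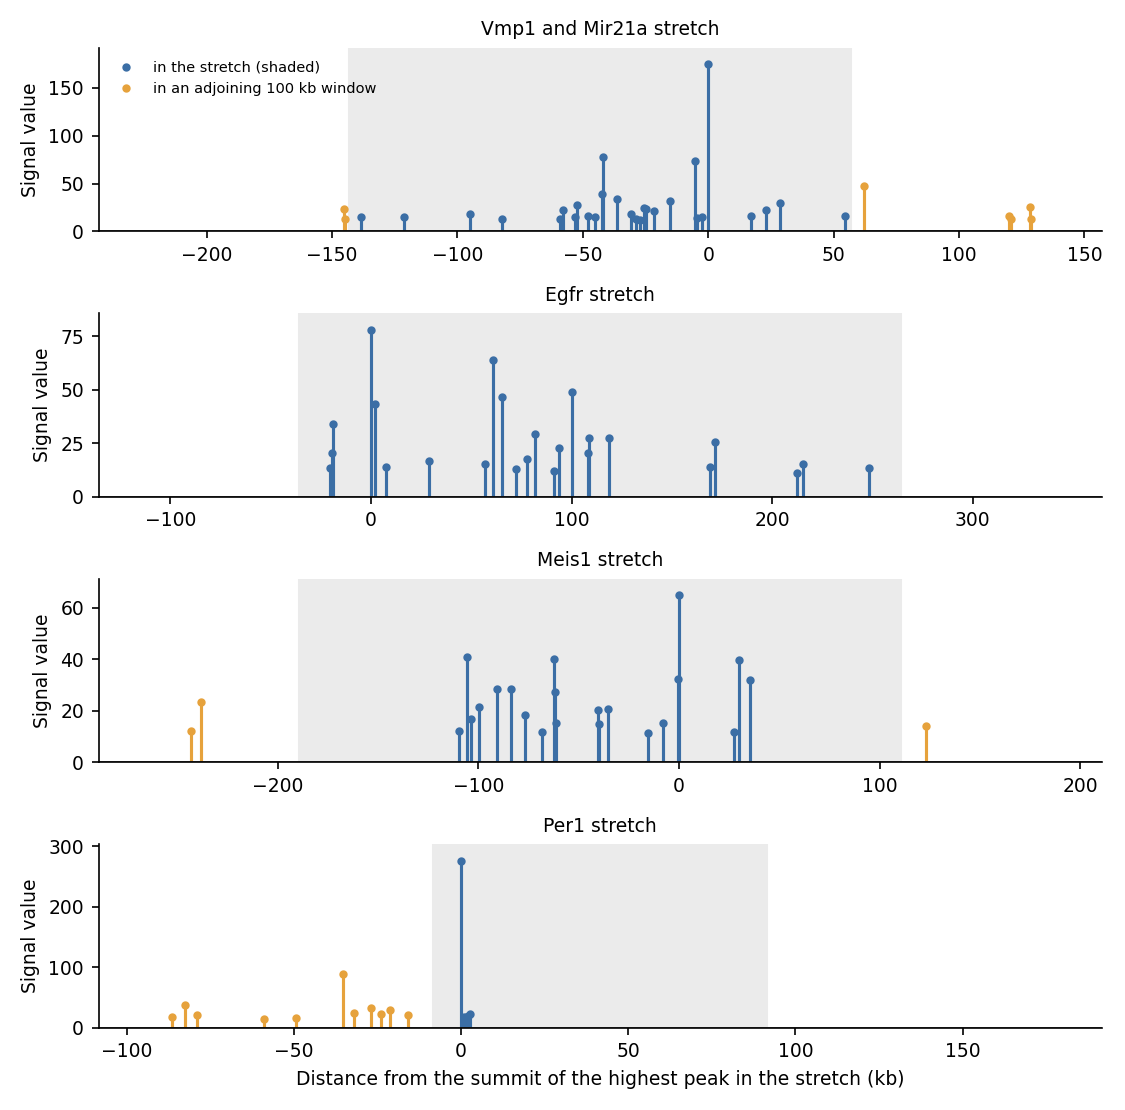
Signal value of each peak against the distance of its summit from that of the highest peak (kb) in the stretches of Vmp1 and Mir21a (28 peaks), Egfr (24), Meis1 (21) and Per1 (5). Shading marks the stretch, orange points are peaks of the adjoining 100 kb windows, and both scales differ between panels. In the Per1 panel the peak of 276 stands near an edge, with 11 peaks of up to 89.1 in the window to its left.

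The Sqstm1 stretch is that of p62, a receptor that carries cargo into autophagosomes. It had 5 peaks between 50000001 and 50100000. Peaks of 126 at summit 50023766 and 168 at 50026664 stood 2898 bp apart, and the other 3 had 18.9, 11.9 and 36.6. It was the only one of the 12 stretches with more than 1 peak of at least 100, and with the adjoining windows counted that of Trp53 was another. Over the chromosome 2.04% of peaks reached 100. The 12 stretches were kept after counts had been seen, so being the only one among them carries no weight. The Brca1 stretch, from 101300001 to 101500000, named for a DNA repair protein, had 10 peaks. A peak of 163 at 101414047 and one of 36.9 at 101413292 stood 755 bp apart, and the other 8 lay between 11.9 and 27.2. In the RefSeq gene order by coordinate, Brca1, on the minus strand, stands between Rnd2 and Nbr1, which codes for another autophagy receptor.

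The Col1a1 stretch, named for a chain of collagen I, the main fibrous protein that fibroblasts secrete, had 7 peaks in 200 kb, none above 27.4. The stretch of the alpha-globins, genes of red blood cells, had 4 peaks in 100 kb of at most 22.9. With 9.94% of peaks on the chromosome reaching 50, so few peaks say little about strength. The Col1a1 result rests on its edge, since a peak of 79.4 lay at summit 94902808 in the adjoining window. With the adjoining windows the alpha-globin stretch had 6 peaks, the highest 32.1.

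**Figure D5:**
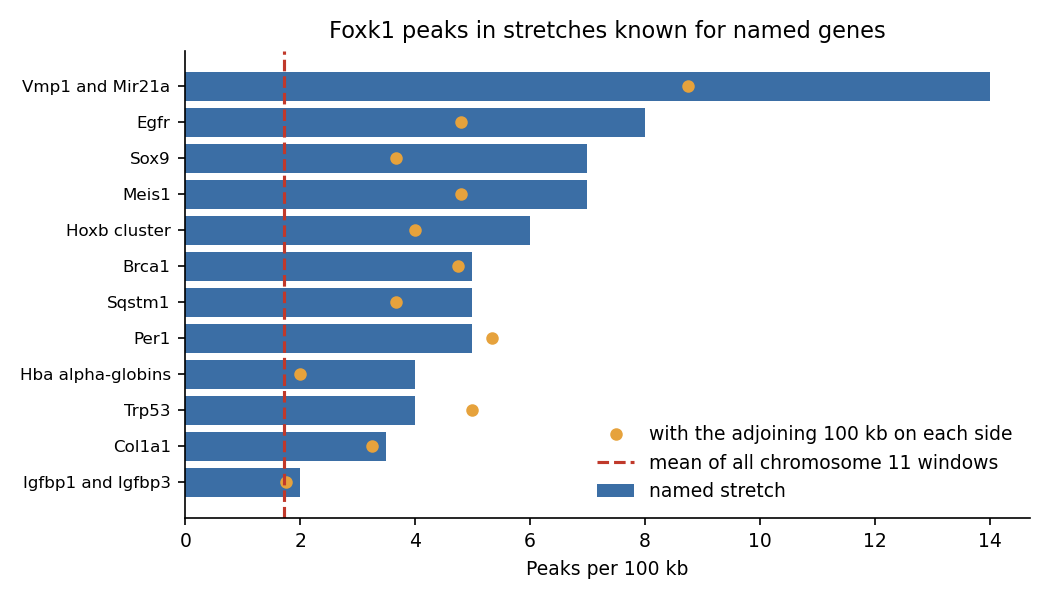
Number of peaks per 100 kb in the stretches of 12 named loci, with the mean over all 1217 windows of chromosome 11 (1.73) as a dashed line. Orange points give the count with the adjoining 100 kb on each side (1.75 to 8.75). The stretch of Vmp1 and Mir21a is highest at 14 per 100 kb, and that of Igfbp1 and Igfbp3 lowest at 2.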

How the data were processed

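Alignment used Bowtie and mm9, per the submitters' processing notes. The peak caller, its settings and any pooling of libraries were not given in the sources used here. For Foxk1 against input a narrowPeak list was deposited, with a signal value per peak (a score of unstated scale), a q-value on a linear scale (0.00014 to 0.00995), and start, end and summit positions, other measures being fillers. Every peak was 460 bp wide.

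Peaks on chromosome 11 were taken, assigned by summit to windows of 1 Mb and 100 kb from the coordinate origin, and given 1-based. Density used the highest peak end as length. Named items were, by rule, the 20 strongest peaks, the 10 fullest windows of each size, the 10 longest intervals, the 5 closest pairs and the end peaks. The members and lists were chosen with earlier results of these data known. Loci were placed on mm9 from general knowledge, and no coordinate was converted by computation. Of the planned loci, those of Sparc, Ebf1, the Il4 cluster, Irf1, the Ccl cluster, Nf1, Stat3 and Stat5, Rara, the type I keratins, Foxk2, Actg1, Timp2, Socs3, Nog and the olfactory receptors are not analysed here. Most of these were dropped after their peak counts had been seen, because they had in effect been placed by way of GRCm38. The places of Per1, Sqstm1, Trp53 and Col1a1 had been compared with GRCm38 too, so the loci kept are neither the planned list nor surer as a group. Counts with the adjoining 100 kb windows were added after seeing the data. Planned counts by gene position and motifs at summits were not run, as no mm9 genome or annotation was used. Promoter and microRNA sequences came from RefSeq (GRCm38.p6), matched by symbol, 6 of 6 found. Counting was tested on a simulated list. Python 3.11.15, numpy 2.4.6, pandas 2.3.3 and matplotlib 3.10.9 were used.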

Additional observations from a re-analysis of the deposited data

How the results depend on the processing

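The alternatives were a stricter list (only the stronger part, from the median signal value of the whole list upwards, or only q-values up to 0.001), merging of summits less than 2000 bp apart, windows shifted by 0.5 of their width, another chromosome length and other neighbour distances. One more, merging of overlapping peaks (2048 regions), was chosen after seeing the data. Both stricter lists keep fewer peaks by construction. From the median signal value upwards, and with q-values up to 0.001, in this order, the number of peaks was 1117 and 1147, their density 9.19 and 9.43 per Mb, the share of empty 100 kb windows 57.2% and 56.7%, the fullest 1 Mb window 31 and 33 peaks, the median distance between summits 36.2 and 35.1 kb, and the share of peaks with a summit within 2000 bp 19.6% and 19.8%. With q-values up to 0.001, 18.2% of peaks reached a signal value of 50. The share with a neighbour was 18.4% within 1000 bp and 43.98% within 5000 bp. Merging, shifted windows and the other length moved counts, densities and distances by less than 1.5 times, and shares stayed within their exact 95% binomial interval. That interval treats the windows or peaks of 1 list as independent, although peaks were clustered. It served only as a yardstick and measures no spread between replicates. The fullest 100 kb window held between 12 and 21 peaks over the alternatives, and the longest interval measured 4.03 or 4.40 Mb. No paired analysis was possible because the list holds no value per library, and no library could be left out. Depth is unknown and limits which weak peaks were listed.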
